A study of Mus musculus with 6 samples.

Results

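TAF4b peaks centred 0 to 100 bp upstream of a transcription start site (TSS) made up about as many peaks as all other promoter positions together in oocytes of mouse embryos at E16.5. Members were chosen by the authors' distance to the nearest TSS, from -100 to 0 bp, where negative means upstream. There were 460 of 983 peaks in TAF4b replicate 1 (46.8%, exact 95% interval 43.6 to 49.97%) and 560 of 1111 in replicate 2 (50.4%, 47.4 to 53.4%). Counting a site found in both lists once, these were 859 sites, 161 of them in this window in both. The other peaks within 1 kb of a TSS, 450 in replicate 1 and 514 in replicate 2, served as the comparison. They were 282 and 348 peaks centred more than 100 bp upstream, and 168 and 166 centred downstream.

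TAF4b is a relative of TAF4 and a subunit of TFIID, the general transcription factor that recognises core promoters and helps place RNA polymerase II at the start site. It is enriched in gonads, and mouse females without it lose oocytes early and are infertile. H3K4me3 is a histone mark of active promoters, laid down around start sites by the SET1 and MLL complexes, and another TFIID subunit, TAF3, can bind it. A TFIID subunit is therefore expected near start sites in general, and the comparisons below ask what sets apart the peaks just upstream of one.

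Libraries were made by CUT&RUN, in which an antibody directs a nuclease to its target and the released DNA is sequenced. All came from oocytes of female embryos at E16.5 that were wild type for Taf4b, of strain C57BL/6 per the labels, from parents homozygous for an Oct4-EGFP transgene, which marks germ cells and was used to sort them. Of the 6 libraries, 2 each were for TAF4b, H3K4me3 and an IgG control, whose signal was not analysed here. The labels do not say whether replicates came from separate animals or pools, and without gene names the cell identity was not checked against marker genes. Each peak has 1 score per list, with no error of its own, so the tests compare classes of peaks within 1 list and not conditions.

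The lists differed in ways that touch every result. TAF4b replicate 1 peaks were 90 bp wide and replicate 2 peaks 134 bp, so a replicate 2 peak has more room to overlap a region. Peak scores ran from 4.62 to 28.9 in replicate 1 and from 11.2 to 119.7 in replicate 2, on scales that the sources do not tie together, so score levels are compared within a list. H3K4me3 replicate 1 held 8129 regions and replicate 2 held 320, each at least 500 bp wide. Read totals are not in the lists, so depth is unknown.

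Within the window, peaks were spread over its whole length in both lists. The median distance of the members was -46 bp in replicate 1 (25th to 75th percentile -72 to -22 bp) and -52 bp in replicate 2 (-75 to -30.75 bp). In bins of 20 bp, replicate 1 counts went from 76 peaks at 80 to 100 bp upstream to 100 peaks in the bin next to the TSS. Replicate 2 counts were highest at 40 to 60 bp upstream, with 133 peaks, and 94 in the bin next to the TSS. Just past the TSS, the first 20 bp downstream held 55 and 69 peaks. The peak itself covered the TSS in 222 members of replicate 1 (48.3%) and 378 of replicate 2 (67.5%), a difference that the wider peaks of replicate 2 favour. These values describe the rule and were not tested.

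**Figure D1:**
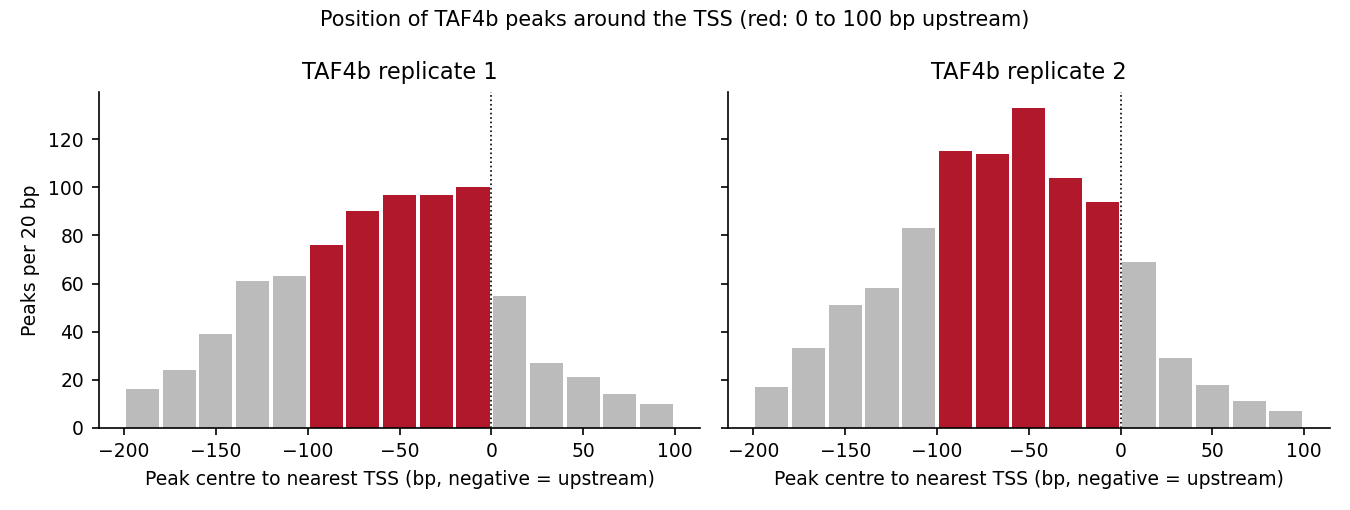
Number of TAF4b peaks (y axis) per 20 bp of distance between the peak centre and the nearest TSS (x axis, bp, negative upstream), for each replicate; red bars are the peaks 0 to 100 bp upstream. Replicate 1 has its tallest bar beside the TSS with 100 peaks and replicate 2 at 40 to 60 bp upstream with 133.

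The limits of the window fell inside a continuous distribution. At exactly -100 bp, replicate 1 held 2 peaks, with scores of 8.85 and 15.4, and 1 bp farther upstream it held 4, with scores from 6.16 to 26.2. Replicate 2 held 3 peaks at -100 bp, with scores of 14.2 to 25.4, and 7 at 1 bp farther upstream, with scores of 16.2 to 37.5. At 0 bp there were 11 peaks in replicate 1 and 8 in replicate 2, against 2 and 9 at 1 bp downstream. Peaks on either side of a limit thus had overlapping scores.

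Each member of a list had a nearest transcript of its own, 460 and 560 transcripts for 460 and 560 peaks. The authors' annotation placed 100% of the members of both lists in its promoter class. Members were chosen for lying next to a TSS, so this share follows from the choice and is no finding. That annotation named the same transcript as the nearest TSS for 139 members of replicate 1 and 160 of replicate 2. It named another transcript for 321 and 400. Transcripts per promoter were not counted, and other peaks were not examined for this, so it is not a trait of the members. Another peak of the same list was centred within 1 kb of 20 members in replicate 1 (4.35%) and 17 in replicate 2 (3.04%). Neighbours of the other peaks were not counted, so these shares do not set the members apart.

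Members lay on all 19 autosomes and the X chromosome in both lists, with 0 on unplaced contigs. Chromosome 11 carried the most, 43 in replicate 1 (9.35%) and 54 in replicate 2 (9.64%), and it also carried 8.67% and 7.78% of the other promoter peaks. The X chromosome carried 9 members in replicate 1 (1.96%) and 14 in replicate 2 (2.50%), beside 2.44% and 2.33% of the other promoter peaks. Gaps were wider elsewhere. In replicate 1 chromosome 7 carried 6.74% of members and 11.1% of the others, and chromosome 16 carried 4.78% and 2.44%. These shares were 6.07% and 8.37%, and 2.86% and 2.72%, in replicate 2, where chromosome 6 differed most in ratio, with 5.18% and 2.72%. Chromosome shares were not tested.

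Scores of the members were modest. The peak score is the authors' own measure of signal at a peak. In replicate 1 the members ran from 4.62 to 24.6 with a median of 7.7, and the other promoter peaks from 5 to 28.9 with a median of 8.08. In replicate 2 the members ran from 12.2 to 55.8 with a median of 18.3, and the others from 12.2 to 119.7 with a median of 19.3. The ranges overlapped almost wholly in both lists, and the highest score of each list lay outside the window.

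To test the scores, peaks were counted above the median of all promoter peaks of their list. In replicate 1, 196 of 460 members (42.6%, 38.0 to 47.3%) and 219 of 450 others (48.7%, 44.0 to 53.4%) were above it, as were 43.9% of all peaks of the list. The odds ratio was 0.783 (0.598 to 1.03, Fisher's exact test, two-sided here and below, adjusted p = 0.153). In replicate 2, 263 of 560 members (47.0%, 42.8 to 51.2%) and 270 of 514 others (52.5%, 48.1 to 56.9%) were above it, beside 49.1% of all peaks, with an odds ratio of 0.800 (interval 0.625 to 1.02, Fisher's exact test, adjusted p = 0.153). Neither difference passed the threshold of 0.05. All p-values of this kind were adjusted by the Benjamini-Hochberg method over 12 tests, 6 measures in each list.

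The other peaks were then split by side. Of the peaks more than 100 bp upstream, 56.0% in replicate 1 and 57.2% in replicate 2 were above the median score, and against them the odds ratios of the members were 0.583 (0.427 to 0.795, Fisher's exact test, adjusted p = 0.00195) and 0.663 (0.502 to 0.876, Fisher's exact test, adjusted p = 0.00793). Of the peaks downstream, 36.3% and 42.8% were above it, and the members did not differ from them beyond the threshold, with odds ratios of 1.30 (0.891 to 1.91) and 1.18 (0.824 to 1.71). Peaks next to the TSS on its upstream side thus scored lower than peaks farther upstream, in both lists. With members taken only to -50 bp, they also passed against all other promoter peaks, with odds ratios of 0.677 and 0.664 (Fisher's exact test, adjusted p = 0.0382 and 0.0256). With members taken to -150 bp, neither list passed, and the odds ratio turned to 1.15 in replicate 1 and was 0.987 in replicate 2 (Fisher's exact test, adjusted p = 0.433 and 0.948).

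The focus ratio was higher among the members than among the other promoter peaks. In HOMER, whose column names the lists carry, this fraction describes how well the reads of a peak lie on the sides of its centre that a single bound site would give. The median was 0.679 in members and 0.66 in the other promoter peaks of replicate 1, and 0.6795 and 0.667 in replicate 2. The full ranges of members and others overlapped, from 0.514 to 0.889 against 0.515 to 0.9 in replicate 1, and from 0.455 to 0.882 against 0.488 to 0.895 in replicate 2.

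In replicate 1, 254 members (55.2%, 50.5 to 59.8%) lay above the median focus ratio of the promoter peaks, against 198 others (44.0%, 39.4 to 48.7%) and 51.6% of the whole list. The odds ratio was 1.57 (interval 1.20 to 2.06, Fisher's exact test, adjusted p = 0.00877). In replicate 2, 297 members (53.0%, 48.8 to 57.2%) and 231 others (44.9%, 40.6 to 49.4%) did, beside 49.3% of the whole list, with an odds ratio of 1.38 (interval 1.08 to 1.77, Fisher's exact test, adjusted p = 0.0259). The share of the whole list lay within the interval of the members in both lists. Pooled over 4 equal groups by score, the odds ratios were 1.62 (1.24 to 2.11) and 1.41 (1.11 to 1.79), still past the threshold (Cochran-Mantel-Haenszel chi-square test, adjusted p = 0.00414 and 0.0163). The call was lost in both lists against the downstream peaks alone (odds ratios 1.57 and 1.30, adjusted p = 0.0889 and 0.291 in Fisher's exact test) and against all other peaks of the list (1.32 and 1.35, adjusted p = 0.105 and 0.0555 in Fisher's exact test). It was lost in replicate 1 alone with members taken to -150 bp (1.39, adjusted p = 0.147 in Fisher's exact test) and with the split at the upper quartile (1.42, adjusted p = 0.0625 in Fisher's exact test), and in replicate 2 alone with members taken only to -50 bp (1.21, adjusted p = 0.310 in Fisher's exact test).

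Within the members of replicate 1, 64.1% of the 248 that replicate 2 lacked were above the median focus ratio, against 44.8% of the 212 that replicate 2 shared. The replicate 1 peaks more than 100 bp upstream had a similar gap, 53.1% of those that replicate 2 lacked and 36.2% of those it shared, and the downstream peaks had 44.1% and 43.9%. Among the members of replicate 2 these shares were 54.1% and 51.4%, closer together, and none of these pairs was tested. A site's focus ratio in 1 list said little about it in the other: over the 161 sites in the window in both lists, Spearman's rho between the 2 focus ratios was 0.121. The pairs come from separate libraries, and whether these came from separate animals is not stated.

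**Figure D2:**
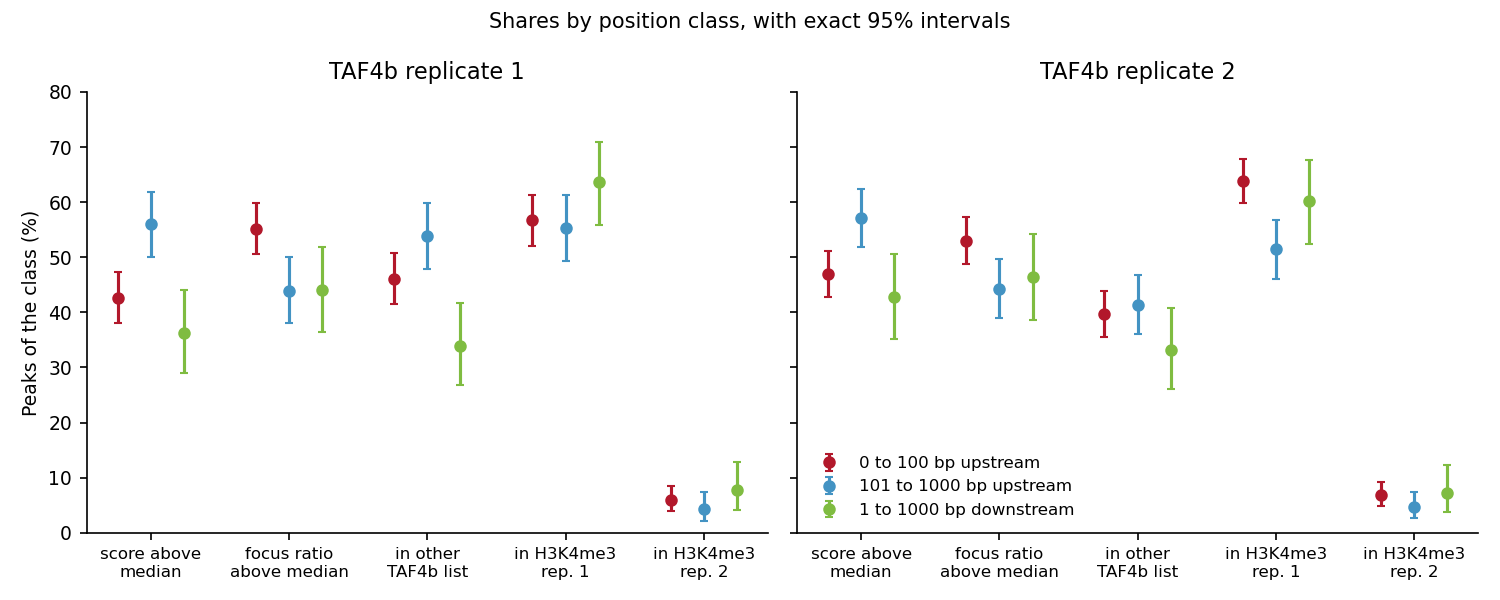
Percent of peaks (y axis) with each property (x axis), in 3 classes of position and both TAF4b lists; points are shares and bars are exact 95% intervals. Peaks 0 to 100 bp upstream (red) have lower scores than those farther upstream (blue), 42.6% against 56.0% in replicate 1. Of the 3 classes they have the highest share of high focus ratios, 55.2% and 53.0%.

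Replicate agreement of the members was not distinguishable from that of other promoter peaks. In replicate 1, 212 of 460 members overlapped a replicate 2 peak by at least 1 bp (46.1%, 41.5 to 50.8%), as did 209 of 450 others (46.4%, 41.8 to 51.2%) and 43.6% of the whole list. The odds ratio was 0.986 (interval 0.753 to 1.29, Fisher's exact test, adjusted p = 0.947). In replicate 2, 222 of 560 members (39.6%, 35.6 to 43.8%) and 199 of 514 others (38.7%, 34.5 to 43.1%) were found in replicate 1, beside 38.6% of the whole list (odds ratio 1.04, 0.807 to 1.34, Fisher's exact test, adjusted p = 0.947). Both intervals span 1, and so allow a difference of either sign.

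By side, 53.9% of the peaks farther upstream and 33.9% of those downstream in replicate 1 were found in replicate 2, on either side of the 46.1% of the members. In replicate 2 these shares were 41.4% and 33.1%, around the 39.6% of the members. Against downstream peaks of replicate 1 the members had an odds ratio of 1.66 (interval 1.14 to 2.45, Fisher's exact test, p = 0.00639), which did not pass after adjustment (0.0767). Against its upstream peaks the odds ratio was 0.731 (interval 0.537 to 0.995, Fisher's exact test, p = 0.0413), which did not pass either (adjusted to 0.0708).

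Agreement went with score inside the window. In replicate 1, 26.5% of the 117 members in the lowest of 4 equal score groups were found in replicate 2, then 32.8%, 51.6% and 77.5% in the groups above. In replicate 2 the 4 shares were 14.8%, 31.3%, 47.8% and 69.0%. The shares of the other promoter peaks also increased with score, from 15.3% to 76.9% in replicate 1 and from 15.2% to 63.6% in replicate 2. The widest gap between members and others was in the lowest group of replicate 1, 31 of 117 against 15 of 98 peaks, and single groups were not tested. Members in both lists had a median score of 9.24 in replicate 1, against 7.31 for the members replicate 2 lacked, and the medians in replicate 2 were 21.8 and 17.2. For a stratified test, 4 score groups were cut anew over the promoter peaks alone. With score so held, the odds ratio for agreement of members against others was 1.18 in replicate 1 (0.880 to 1.58, Cochran-Mantel-Haenszel chi-square test, adjusted p = 0.385), so no difference was detectable there either.

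**Figure D3:**
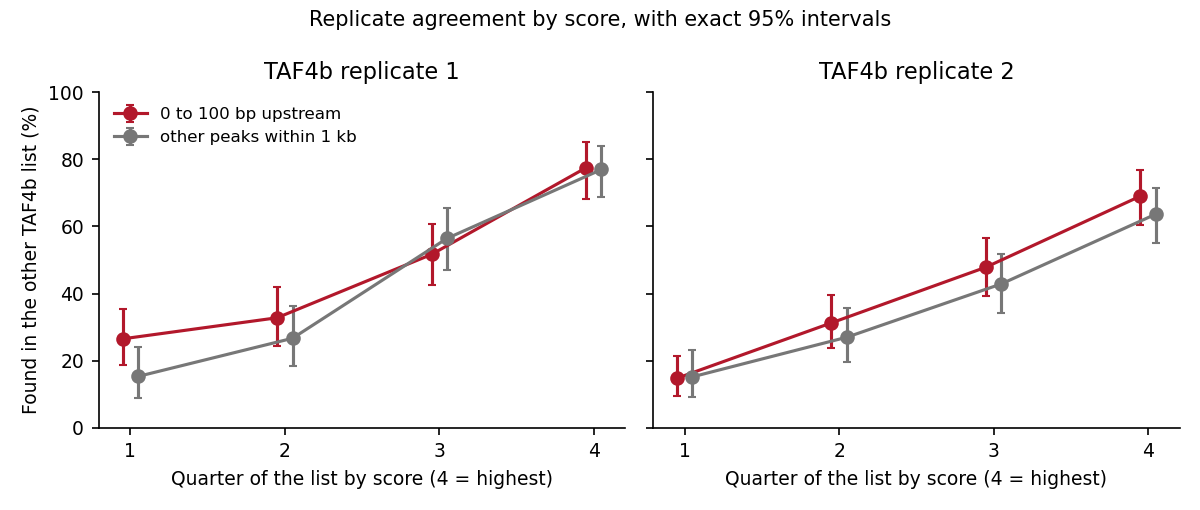
Percent of peaks found in the other TAF4b list (y axis) in 4 equal groups of the list by score (x axis, 4 highest), for peaks 0 to 100 bp upstream (red) and other promoter peaks (grey), with exact 95% intervals. Red goes from 26.5% to 77.5% in replicate 1 and from 14.8% to 69.0% in replicate 2, and grey from 15.3% to 76.9% and from 15.2% to 63.6%.

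Most members found in both replicates were in the window in both. Partners had to overlap, which keeps their centres close and favours this. Of the 212 replicate 1 members with a replicate 2 partner, 161 had that partner between -100 and 0 bp (75.9%), 29 had it farther upstream and 22 downstream, at -163 to 55 bp. Of the 222 replicate 2 members with a partner, the same 161 (72.5%) were in the window, 36 had their partner farther upstream and 25 downstream. In 185 of the 212 pairs both lists named the same nearest transcript. In all 185 the distances to the TSS differed by exactly the distance between the peak centres, which shows that the authors measured from the centre.

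The 161 sites placed in the window by both lists were close in position. Their centres were a median of 19 bp apart (25th to 75th percentile 8 to 39 bp, at most 87 bp), and 86 of them (53.4%) within 20 bp. Replicate 2 lay farther upstream at 77 sites, replicate 1 at 78, and 6 were at equal distances. Spearman's rho between the replicates was 0.441 for distance and 0.424 for score (Pearson's r 0.435 and 0.541), each over sites chosen to lie in a window of 100 bp and to overlap, which bounds how far distances can differ. Rank by score was thus shared in part, and the strongest member of replicate 1 shows the limit. It lay on chromosome 15 at 79430933 to 79431023, with a score of 24.6 there and 20.3 in replicate 2, where it ranked at the 58.9th percentile. This peak was picked after its values were seen.

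**Figure D4:**
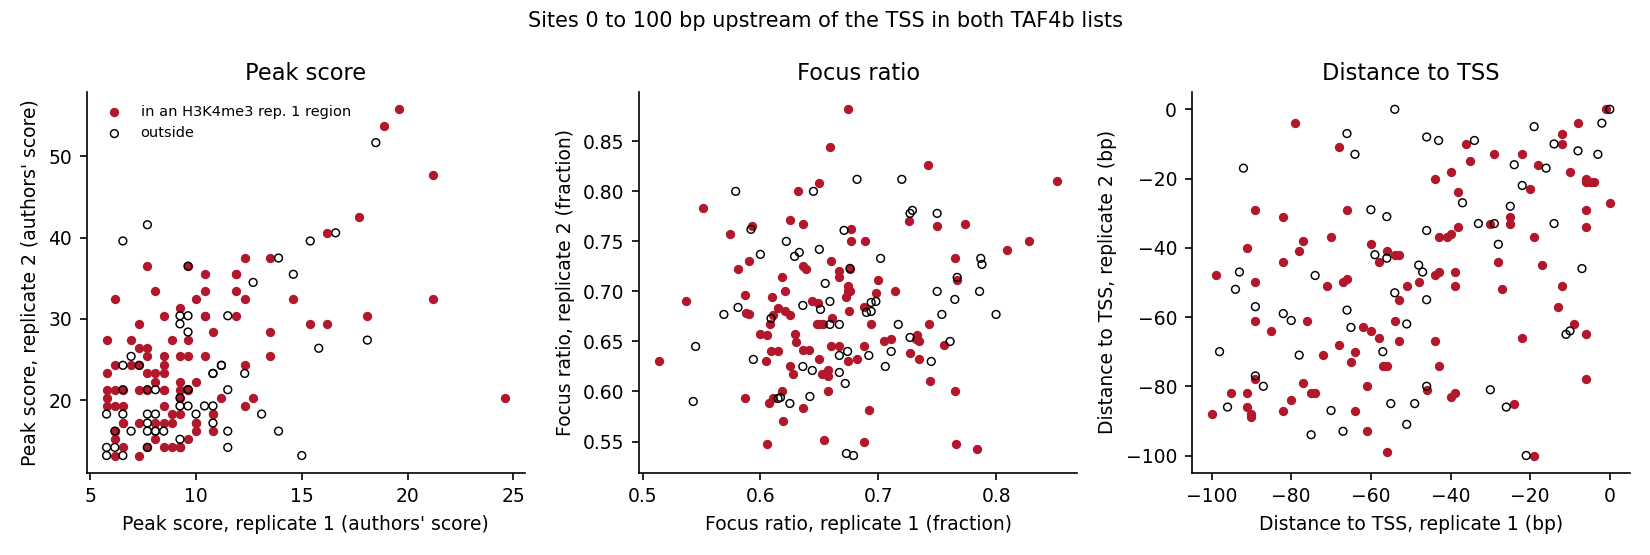
Score (authors' units), focus ratio (fraction) and distance to the TSS (bp) of the 161 sites in the window in both TAF4b lists, replicate 1 on the x axis and replicate 2 on the y axis. Filled points are sites where the peak of either list overlaps an H3K4me3 replicate 1 region, and open points are the rest. Scores and distances rise together in part (rho 0.424 and 0.441), and focus ratios scarcely (rho 0.121).

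Overlap with H3K4me3 was higher among members in replicate 2, while in replicate 1 no difference passed the test. In replicate 1, 261 members lay in an H3K4me3 replicate 1 region (56.7%, 52.1 to 61.3%), as did 263 of the other promoter peaks (58.4%, 53.7 to 63.0%) and 54.5% of the whole list. The odds ratio was 0.933 (interval 0.711 to 1.22, Fisher's exact test, adjusted p = 0.852). In replicate 2, 358 members did (63.9%, 59.8 to 67.9%), against 279 others (54.3%, 49.9 to 58.6%) and 58.1% of the whole list, with an odds ratio of 1.49 (interval 1.16 to 1.92, Fisher's exact test, adjusted p = 0.00906).

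The odds ratios of the lists lay on opposite sides of 1. Among promoter peaks found in 1 list only, which keeps the lists separate, members had an odds ratio of 0.836 in replicate 1 (0.576 to 1.21) and 1.67 in replicate 2 (1.21 to 2.32). A Breslow-Day chi-square test of equal odds ratios, gave p = 0.00415 and an adjusted p of 0.0121 over 5 measures. It was chosen after this difference was seen and uses peaks that carry it, so it is no independent evidence, and it compares the lists of 2 libraries only. The members that replicate 2 alone held were in H3K4me3 replicate 1 regions in 64.2% of cases, and those that replicate 1 alone held in 52.8%. In replicate 2 the contrast lay with the peaks farther upstream, of which 51.4% were in a region (odds ratio 1.67, adjusted p = 0.00195 in Fisher's exact test), while 60.2% of the downstream peaks were (odds ratio 1.17, adjusted p = 0.492 in Fisher's exact test). With the TAF4b lists pooled the odds ratio was 1.20 (1.00 to 1.43, Cochran-Mantel-Haenszel chi-square test, adjusted p = 0.0903), no longer past the threshold, and peaks in both lists are counted in it for each list.

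The short H3K4me3 replicate 2 list held few members. It covered 27 of 460 members (5.87%, 3.90 to 8.43%) and 25 of 450 others (5.56%) of TAF4b replicate 1, beside 5.29% of all its peaks (odds ratio 1.06, 0.582 to 1.94, Fisher's exact test, adjusted p = 0.947). Of TAF4b replicate 2 it covered 38 of 560 members (6.79%, 4.85 to 9.20%) and 28 of 514 others (5.45%), beside 6.03% of all peaks (odds ratio 1.26, 0.742 to 2.17, Fisher's exact test, adjusted p = 0.645). Taking a region of either H3K4me3 list, the shares of members were 57.2% and 63.9%, those of the others 59.1% and 54.7%, and those of the whole lists 55.0% and 58.4%. The odds ratios were 0.924 (0.703 to 1.21, adjusted p = 0.852) and 1.47 (1.14 to 1.89, adjusted p = 0.00915, both Fisher's exact tests), close to those of H3K4me3 replicate 1 alone.

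Most members that overlapped the mark lay wholly inside it, as did the other promoter peaks. Of the 261 members in an H3K4me3 replicate 1 region, 244 lay wholly inside (93.5%) in TAF4b replicate 1, and 316 of 358 (88.3%) did in replicate 2. These shares were 90.4% and 84.4% for the peaks more than 100 bp upstream, and 92.5% and 91.0% for the downstream peaks, with no test. The peak centre was a median of 142.5 and 130.5 bp from the region's centre, and 236 and 234 bp from its nearer edge, beside 217 to 244.5 bp from that edge in the other classes. These regions had median widths of 781 and 731 bp and median H3K4me3 scores of 65 and 62.6, with 24.9% and 27.9% of them at the smallest width of 500 bp. Regions at the peaks more than 100 bp upstream were alike, with median widths of 797 and 792 bp and a median score of 69.6 in both lists.

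The direction of transcription could be read for members whose nearest transcript was also nearest to another listed feature, since the 2 distances and centres then fix the strand. Features within 5 kb of a TSS were used, and distances had to match within 1.5 bp. This held for 229 members of replicate 1 and 300 of replicate 2, with 0 contradictions beside 880 transcripts resolved. Of those in an H3K4me3 replicate 1 region, 158 and 223, the region also covered the TSS in 95.6% and 96.0%. It reached a median of 415 bp upstream and 354 bp downstream of the TSS in replicate 1, and 432 and 342 bp in replicate 2. The downstream reach was the longer in 66 of 158 (41.8%) and 82 of 223 (36.8%). At members, H3K4me3 was thus found on both sides of the TSS, with a somewhat longer upstream reach, in these transcripts alone and with no test. Choosing regions that hold an upstream peak favours an upstream reach. Regions at least 500 bp wide that overlap a peak this near the TSS are also apt to cover it. The region covered the TSS in 82.0% and 82.4% of such peaks farther upstream, and in 87.3% and 87.0% of those downstream. At the peaks farther upstream it reached a median of 548 bp upstream and 271 bp downstream in replicate 1. These values were 517.5 and 291.5 bp in replicate 2. At downstream peaks they were 366 and 520 bp, and 336 and 467.5 bp, so the longer side went with the side of the peak in every class.

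**Figure D5:**
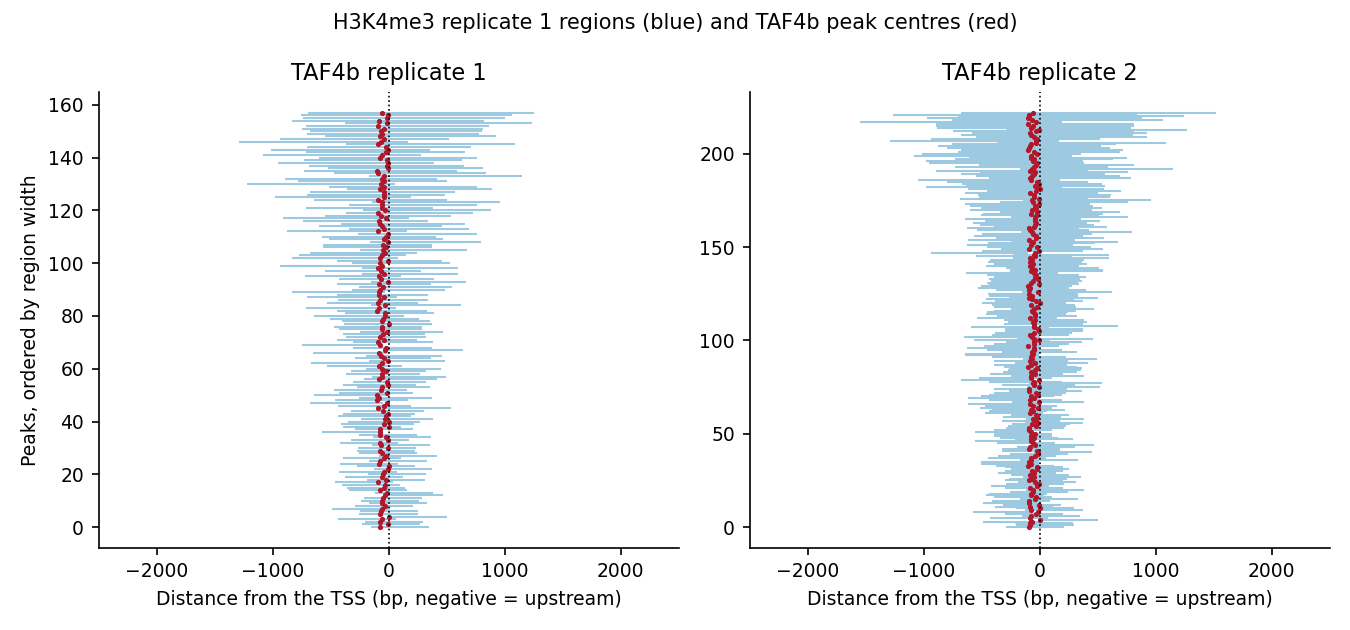
H3K4me3 replicate 1 regions (blue lines) around the TSS at members of each TAF4b list whose strand could be read, with the TAF4b peak centre (red); x axis distance from the TSS in bp, negative upstream, and y axis peaks in order of region width. Regions reach a median of 415 bp upstream and 354 bp downstream in TAF4b replicate 1, and red points lie inside nearly every line.

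Regions of either H3K4me3 list held 57.2% and 63.9% of the members, beside 55.0% and 58.4% of all peaks. Lying outside them was thus no more common among members than over all peaks. Outside were 197 of 460 members of replicate 1 and 202 of 560 of replicate 2. A region lay within 1 kb of 44 (22.3%) and 59 (29.2%) of these, while 135 (68.5%) and 126 (62.4%) had none within 10 kb. Of the outside peaks farther upstream, 60.5% and 67.1% had none within 10 kb, and of the outside downstream peaks 70.0% and 66.7%. Scores did not part the members by called regions: the median was 7.7 inside and outside H3K4me3 replicate 1 regions in TAF4b replicate 1, and 18.3 inside and outside in replicate 2. Of the 161 sites in both lists, 102 lay in an H3K4me3 replicate 1 region by the peak of either TAF4b list (63.4%). Of these, 15 also lay in a replicate 2 region by either peak. No region lay within 10 kb of either peak at 34 of the 161 sites (21.1%). Counting either peak is looser than the counts by list above. No comparison class was set beside these shares.

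The strongest sites in both lists, ranked by mean score percentile, are given by their position in replicate 1 on GRCm39, since the lists pair no gene names with their Ensembl transcripts. The highest lay on chromosome 3 at 95532205 to 95532295, nearest to ENSMUST00000199421. It was at -54 and -61 bp with scores of 19.6 and 55.8 and focus ratios of 0.726 and 0.77 in replicates 1 and 2, and its H3K4me3 replicate 1 region was 1102 bp wide. The next, on chromosome 14 at 67953251 to 67953341, was at -6 and -20 bp with scores of 21.2 and 47.7. Its focus ratios of 0.587 and 0.593 were below the median of both lists, so a strong peak was not always a focused one. The third, on chromosome 9 at 13738907 to 13738997, was at -60 and -39 bp with scores of 18.9 and 53.8.

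The other sites of this ranking had lower mean percentiles. The site on chromosome 2 at 93988305 to 93988395 lay at -41 and -37 bp with scores of 17.7 and 42.6, in an H3K4me3 region 979 bp wide. On the X chromosome, at 150586129 to 150586219, a site lay at -65 and -63 bp with scores of 16.6 and 40.6, 277 bp from the nearest H3K4me3 region. The site on chromosome 3 at 95836469 to 95836559 lay at -44 and -67 bp with scores of 16.2 and 40.6 and high focus ratios of 0.742 and 0.826. Less stable was the site on chromosome 14 at 60488965 to 60489055, at -54 bp in replicate 1 and 0 bp in replicate 2, with scores of 15.4 and 39.6. On chromosome 1, the site at 86287227 to 86287317 lay at -24 bp from 1 transcript and -85 bp from another in replicate 2, with scores of 21.2 and 32.5.

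Strong sites also occurred with no called H3K4me3 region within 10 kb. The lists hold called regions only, so they do not show that the mark itself was absent there. On chromosome 3 at 123302067 to 123302157, nearest to ENSMUST00000196466, scores were 18.5 and 51.7 at -59 and -42 bp, with the nearest H3K4me3 region 121876 bp away from the nearer of the 2 peaks. On chromosome 1 at 154975433 to 154975523, scores were 13.9 and 37.5 at -96 and -86 bp, with focus ratios of 0.787 and 0.733 and no region nearer than 46987 bp. On chromosome 11 at 100210655 to 100210745 they were 12.7 and 34.5, at -11 and -65 bp, with a region 18701 bp away. On chromosome 6 at 21949492 to 21949582 both lists placed the site at -33 bp, scoring 15.8 and 26.4, and no region was nearer than 568667 bp. The last of the 5, on chromosome 8 at 96161534 to 96161624, scored 11.5 and 30.4, with a region 20874 bp away.

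At the other end were members with the mark in both H3K4me3 lists. Apart from sites already given, they included chromosome 9 at 35122307 to 35122397, almost on the TSS at -1 and 0 bp, with TAF4b scores of 11.9 and 35.5 and H3K4me3 scores of 46.4 and 113.4. The site on chromosome 1 at 131455106 to 131455196 had TAF4b scores of 12.3 and 32.5, and H3K4me3 regions 1948 and 1113 bp wide with scores of 206.5 and 177.3. H3K4me3 scores ran from 23.2 to 693.7 in replicate 1 and from 63.8 to 27445.5 in replicate 2. Their scales are not tied together, so these scores are not compared between lists.

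Some members of high score were found in 1 list only. The highest of replicate 1, on chromosome 1 at 65225741 to 65225831 (-56 bp) and chromosome 8 at 26330803 to 26330893 (-33 bp), both scored 12.7, followed by chromosome 3 at 138232907 to 138232997 (-94 bp) with 12.3. These were at about the 90th percentile of their list (90.4 for the first). The highest of replicate 2, on chromosome 8 at 71292366 to 71292500 (-69 bp), scored 45.7, at the 99.0th percentile, and those on chromosome 3 at 137570165 to 137570299 (-16 bp) and chromosome 11 at 68582595 to 68582729 (-79 bp) scored 40.6 and 38.6. A high score in 1 list thus did not ensure a call in the other.

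The 3 most focused sites in both lists had mean score percentiles of 49.0 to 97.2, and the 3 least focused 32.3 to 50.4. The highest mean focus ratio was on chromosome 12 at 55883025 to 55883115, with 0.852 and 0.81 at scores of 8.47 and 17.2, and the next on chromosome 1 at 165064611 to 165064701, with 0.828 and 0.75 at 8.47 and 21.3. The third was the site on chromosome 3 at 95836469 given above, one of the strongest, with 0.742 and 0.826 at 16.2 and 40.6. The lowest was on chromosome 14 at 66071422 to 66071512, with 0.543 and 0.59 at 6.54 and 24.3. It was followed by chromosome 19 at 40502150 to 40502240 with 0.514 and 0.63, and chromosome 8 at 70664929 to 70665019 with 0.606 and 0.548, both scoring 6.54 and 17.2. Across members, the focus ratio and the score were only weakly related, with Spearman's rho of 0.118 over 460 in replicate 1 and 0.0391 over 560 in replicate 2.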

How the data were processed

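The CUT&RUN libraries' titles give the antibody target and replicate. Per the submitters' processing notes, the tools included HOMER 4.10, Bowtie2 2.3.0, SAMtools 1.9 and Trim Galore 0.5.0, on GRCm39, with no role or settings. The sources used here do not say whether IgG was the control when peaks were called. The authors deposited 1 list per library, with a peak score whose scaling is not stated, and, for TAF4b, a focus ratio, a fraction from 0 to 1 per the file headers. Region sizes and distances to the TSS are in bp, per the file headers. In TAF4b replicate 1, 3 peaks had no distance. They were in none of the classes within 1 kb of a TSS but were counted in the whole list.

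Members had a distance of -100 to 0 bp, other promoter peaks lay within 1 kb, and an overlap meant 1 bp or more in common. Shares have exact (Clopper-Pearson) 95% intervals for counting error only. Two-sided Fisher's exact tests compared them, with conditional odds ratios and their 95% intervals, adjusted by Benjamini-Hochberg over 12 tests, with 0.05 as threshold. An alternative was adjusted with its own p in place of the original. A pooled p stood for both lists, so pooled alternatives were in effect adjusted over 6 tests. Stratified odds ratios are Mantel-Haenszel estimates. The 4 score groups were cut over the whole list where shares by group are given, and over the promoter peaks in stratified tests. Both split ties by list order. The tests were tried on simulated data. A table of RefSeq genes of another build matched 0 of the 878 transcripts nearest to members, so the planned gene lists, marker checks and motif counts were not run and no sequence was used. Sites are named by fixed rules: the 10 in both lists whose score percentiles had the highest mean, the 3 top scores in each list alone, the 3 most and least focused, up to 5 with H3K4me3 in both lists and 5 with none within 10 kb. Members, lists and rules were chosen with earlier results of these data known. Calculations were run in Python 3.11.15 with SciPy 1.17.1, statsmodels 0.14.6, pandas 2.3.3, NumPy 2.4.6 and matplotlib 3.10.9.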

Additional observations from a re-analysis of the deposited data

How the results depend on the processing

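The 12 odds ratios were recomputed 106 times under other settings. In 63 the direction and the outcome at the threshold held, 14 lost a call, 7 gained one and 22 changed direction. Only 4 of the 12 passed in the main setting, so the 63 include results that passed in neither setting. Of the 22, 2 had an unadjusted p under 0.05 in the new setting and 0 passed after adjustment. Where no cause is named, the cause was not tested.

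Focus ratio kept its direction throughout, at 1.32 to 1.62 in replicate 1 and 1.21 to 1.56 in replicate 2. Its call was lost in replicate 1 against downstream peaks (1.57), against all other peaks (1.32), with members to -150 bp (1.39) and with a split at the upper quartile (1.42), and in replicate 2 against downstream peaks (1.30), against all other peaks (1.35) and with members to -50 bp (1.21).

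The score passed in neither list in the main setting. It passed against the upstream peaks (0.583 and 0.663), with both lists pooled (0.792), with members to -50 bp (0.677 and 0.664) and, in replicate 1, at the upper quartile (0.682). Peaks in both lists are counted in the pooled value for each list. The score ratio turned above 1 against downstream peaks (1.30 and 1.18) and, in replicate 1, with members to -150 bp (1.15).

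Agreement turned in replicate 1 against downstream peaks (1.66), against all other peaks (1.21), with centres within 50 bp (1.01), with members to -150 bp (1.25), with a larger shared part of the narrower peak required (1.09) and within score groups (1.18), and in replicate 2 against upstream peaks (0.931).

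For H3K4me3 replicate 1, TAF4b replicate 1 turned against upstream peaks (1.06), against all other peaks (1.18) and pooled (1.20), and replicate 2 lost its call against downstream peaks (1.17), pooled (1.20) and with members to -150 bp (1.29). For either H3K4me3 list, TAF4b replicate 1 turned against upstream peaks (1.05), against all other peaks (1.18) and pooled (1.18), and leaving out each H3K4me3 replicate gave 0.933 to 1.06. TAF4b replicate 2 lost its call against downstream peaks (1.17), pooled (1.18) and with members to -150 bp (1.28), and leaving out each H3K4me3 replicate gave 1.26 to 1.49. The call was lost without H3K4me3 replicate 1, where few regions remain. For H3K4me3 replicate 2, ratios turned against downstream peaks (0.744 and 0.934), with members to -150 bp in TAF4b replicate 1 (0.671) and to -50 bp in replicate 2 (0.955).

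Nothing in the labels ties same-numbered libraries to 1 animal or day, and peak lists of different targets gave no means to check it. With same-numbered H3K4me3 lists as the replicate block, the odds ratio was 0.996 (0.789 to 1.26), and the call of TAF4b replicate 2 was lost. This setting both pools the TAF4b lists and changes the H3K4me3 list, and each change by itself also lost the call (1.18 and 1.26). Since depth is unknown, a peak missing from a list may only have fallen short of its calling limit.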
